A study of Mus musculus with 42 samples.

Results

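The comparison described here set the cerebellum of mice on a daily fast of 16 h (IF16) against that of mice fed ad libitum (AL). It uses 10 of the 42 samples of the series, the 5 RNA-seq libraries labelled AL and the 5 labelled IF16. The libraries were identified by their labels, while the comparison and the gene lists were chosen with earlier results of these data known. The animals were male mice of the C57BL/6 strain (C57/BL6NTac in the series' design text), raised on free feeding with a standard rodent diet until 3 months of age and then assigned at random to a regimen. AL mice kept food and water at all times. IF16 mice had food for part of the day only and water at all times. Both regimens lasted 3 months, so the tissue was taken at 6 months of age, and the groups carried no genetic alteration. The hour of collection relative to feeding is not given in the sources used here. A further group on alternate-day fasts of 24 h (EOD, 5 libraries) shared the table and the estimate of spread. Other groups had 2 months of free feeding after the regimens (refed AL and refed IF16, 5 libraries each, collected at 8 months). They served to test whether the difference between IF16 and AL was the same at the end of the regimen and after refeeding. The libraries of a group carry separate replicate labels, and nothing in the labels states which mouse each came from, so the p-values measure the spread between these samples.

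Intermittent fasting lowers insulin and raises glucocorticoids and ketone bodies in the blood, and the hours at which food is eaten are known to set the phase of clocks outside the master clock of the hypothalamus. The molecular clock is a loop in which BMAL1 (gene Arntl) and CLOCK bind E-box sequences and switch on the Per and Cry genes, whose products repress BMAL1 and CLOCK in turn. The PAR bZIP factors Dbp, Tef and Hlf pass the rhythm on to other genes. In the cerebellum, granule neurons make up most cells, Purkinje cells carry the output, and Bergmann glia and astrocytes take up fatty acids and transmitters.

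Depth was even, at 31808399 to 34858564 counts in the AL libraries and 32188471 to 33505722 in those of IF16. Levels are given as CPM, a gene's share of a library's counts after scaling between libraries, set to a fixed total. Over all 20 pairs of libraries within a group, a chi-square statistic of the counts lay between 10.15 and 135.4 per degree of freedom, so no library was a copy of another of its group within sampling noise. Defining markers of the cerebellum were abundant, with summed levels of 5289 to 6154 CPM for granule cells and 5999 to 7410 CPM for Purkinje cells, while forebrain markers summed to 7.16 to 8.98 CPM and brainstem markers to 26.8 to 50.6 CPM. The brainstem sum rested largely on Slc6a5, at 20.9 to 32.7 CPM in AL and 24.2 to 37.7 CPM in IF16. Of the 7 brainstem genes, 4 were at 0 in some libraries. In 3 libraries, AL replicates 4 and 5 and IF16 replicate 1, long genes had low values relative to short ones. The slope of log2 level on log2 gene length was -0.158, -0.106 and -0.114 in these libraries. The mean slope was -0.0394 ± 0.0889 (SD, n = 5) in AL and -0.00105 ± 0.0721 (SD, n = 5) in IF16, and an exact two-sided permutation test of the difference gave p = 0.452 (where 0.00794 is the smallest p this design can give).

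Daily fasting was accompanied by a change in 8 genes. The clock genes Per1, Ciart and Tef rose, as did Etnppl, Mthfd1l and Loxhd1, while Fabp7 and Mmp14 fell. Differences ranged from 36.0% higher for Mthfd1l to 172% higher for Loxhd1, and Fabp7 was 57.9% lower. For each of the 8, no library of one group lay within the range of the other group. The test was the quasi-likelihood test of edgeR with Benjamini-Hochberg adjustment over 16577 genes, and the 8 genes are 0.0483% of those tested, with 0.0362% called higher and 0.0121% called lower. An unadjusted p under 0.05 was reached by 1644 genes (9.92%), and the library ranges did not overlap in 257 genes (1.55%). The median log2 difference over all genes tested was -0.006, and 48.7% had the higher mean in IF16. The count depended on the method and on single libraries: DESeq2 called 96 genes (0.628% of 15287), limma with voom and sample quality weights called 237 (1.43% of 16577, with 0.712% higher and 0.718% lower), and edgeR with the length slope as a covariate called 62, the 8 genes being among the calls of each. Without any one of AL replicates 1 to 5 or IF16 replicates 2 to 5 the count was 3 to 5, the lowest without AL replicate 3 or IF16 replicate 4, and without IF16 replicate 1 it was 10.

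**Figure D1:**
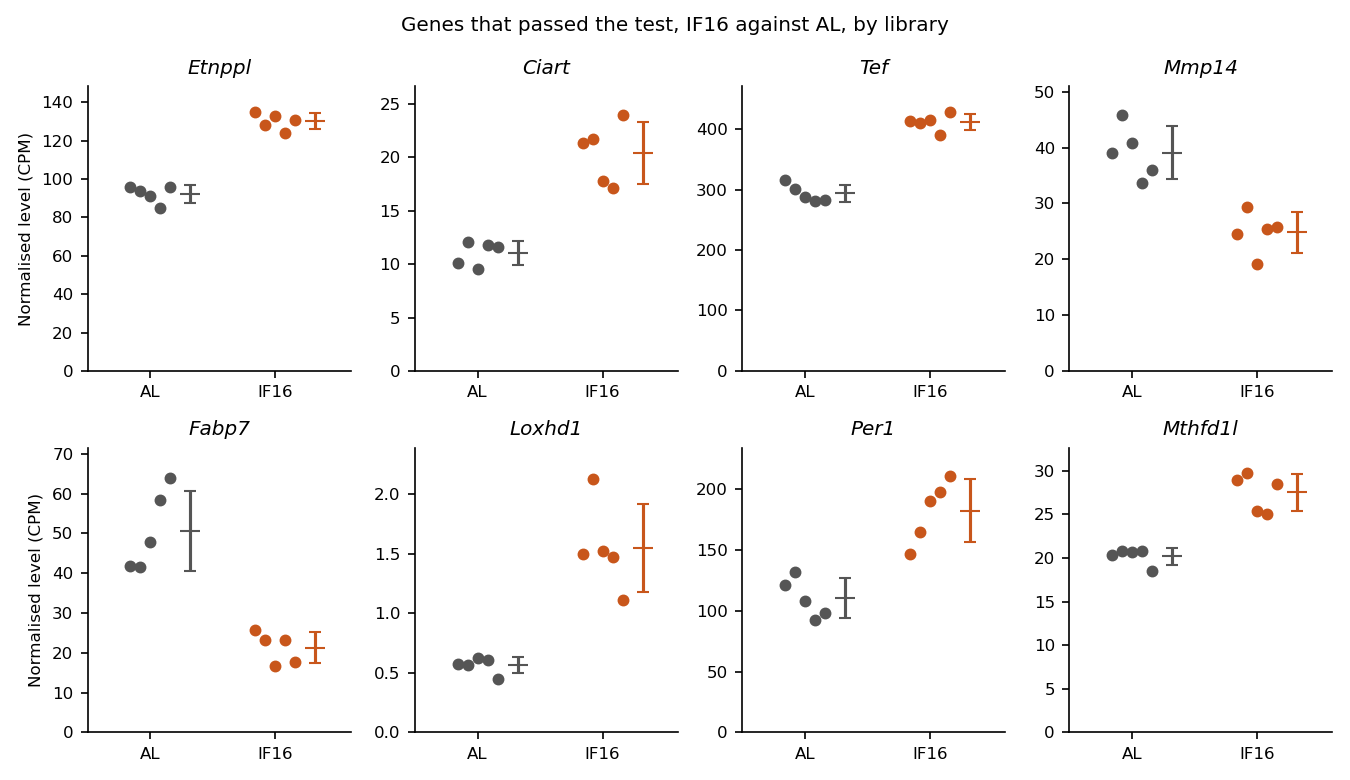
Normalised level (CPM, vertical axes from 0) of the 8 genes that passed the test in each AL and IF16 library (points, replicates 1 to 5 from left to right), with the mean and SD of each group beside them. In every panel the 5 IF16 points lie wholly above or wholly below the 5 AL points.

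Ciart encodes a repressor that binds BMAL1, and it had the largest difference among the 3 clock genes that rose. Its level was 10.1, 12.1, 9.59, 11.8 and 11.6 CPM in AL replicates 1 to 5 and 21.4, 21.7, 17.8, 17.1 and 24 CPM in IF16 replicates 1 to 5. The lowest IF16 library thus lay above the highest AL library, and the log2 difference was 0.89 (SE 0.107; edgeR adjusted p = 0.00174). The gene (ENSMUSG00000038550) lies at chr3:95878503-95882251 in the positions of the deposited table. Tef encodes one of the PAR bZIP output factors. Its AL libraries read 316, 301, 287, 281 and 283 CPM and its IF16 libraries 414, 410, 415, 391 and 429 CPM. The log2 difference of Tef (ENSMUSG00000022389, chr15:81802421-81826861) was 0.49 (SE 0.0594; edgeR adjusted p = 0.00174). Per unit of length, Tef was the most abundant of the clock genes in AL, at 66.7 CPM per kb against 5.69 for Ciart. Ciart and Tef remained called in each of the 10 fits that left out 1 library.

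Per1, a core repressor that is also induced directly by stress hormones and neural activity, read 121, 132, 108, 92.3 and 98.5 CPM in AL and 147, 165, 190, 198 and 211 CPM in IF16. The groups did not overlap, and both were more spread out than for Tef. The log2 difference of Per1 (ENSMUSG00000020893, chr11:69095217-69109960) was 0.73 (SE 0.123; edgeR adjusted p = 0.0451). Its adjusted p crossed the threshold in 8 of the 10 fits with a library left out, up to 0.157 without IF16 replicate 5, while its log2 difference stayed between 0.66 and 0.80. Its lowest AL values came from the 2 libraries of low length slope. With the slope as a covariate the log2 difference was 0.63 (edgeR adjusted p = 6.85e-05), and without the 3 libraries that stood apart it was 0.66 (edgeR adjusted p = 0.0948).

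Promoter windows of these 3 genes are shown because all hold the canonical E-box CACGTG, the sequence through which BMAL1 and CLOCK act. The windows run from 250 bases before to 50 after the transcription start in RefSeq on GRCm38.p6, written 5′ to 3′ along the strand of the gene with each CACGTG in capitals. Ciart is on the minus strand at chr3:95882179-95882478, Per1 on the plus strand at chr11:69098699-69098998, and Tef on the plus strand at chr15:81802423-81802722.
Ciart: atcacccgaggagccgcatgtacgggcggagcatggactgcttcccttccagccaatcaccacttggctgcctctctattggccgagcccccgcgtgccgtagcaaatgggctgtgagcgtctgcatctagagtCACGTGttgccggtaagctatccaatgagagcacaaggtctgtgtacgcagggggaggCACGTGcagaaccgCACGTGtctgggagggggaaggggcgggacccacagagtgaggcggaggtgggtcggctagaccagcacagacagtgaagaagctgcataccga
Per1: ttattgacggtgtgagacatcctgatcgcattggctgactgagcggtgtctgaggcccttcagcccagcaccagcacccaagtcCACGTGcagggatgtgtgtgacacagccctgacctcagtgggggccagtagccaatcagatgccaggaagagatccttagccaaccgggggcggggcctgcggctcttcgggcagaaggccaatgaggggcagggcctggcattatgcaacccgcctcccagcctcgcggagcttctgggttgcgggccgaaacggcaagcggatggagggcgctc
Tef: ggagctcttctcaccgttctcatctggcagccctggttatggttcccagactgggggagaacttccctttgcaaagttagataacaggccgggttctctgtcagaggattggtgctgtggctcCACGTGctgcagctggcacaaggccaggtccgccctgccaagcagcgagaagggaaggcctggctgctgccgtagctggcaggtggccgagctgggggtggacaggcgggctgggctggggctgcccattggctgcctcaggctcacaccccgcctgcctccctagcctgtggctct

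The Ciart window holds 3 copies of CACGTG, whose first bases lie 116, 58 and 44 bases before the start, and the Per1 and Tef windows hold 1 each. Per1 and Tef have 2 windows each in the table. The Per1 window shown is the one that holds the motif, and of the 2 Tef windows, both of which hold it, the one of lower coordinate is shown. CACGTG reads the same on both strands and was found in 7.15% of all 32851 windows in the table, or in at least 1 window of 8.09% of the 27025 genes. Of the 24 clock genes, 19 had a window, and 5 of these held the motif (Bhlhe41, Ciart, Cry1, Per1 and Tef). Of the 20 genes listed for the glucocorticoid response, described below, 17 had a window, and 4 held it. The motif was thus not particular to the clock genes. Of the 8 genes that passed the test, 7 had a window, and the 3 that held it were again Ciart, Per1 and Tef. A match describes the letters of a window and is not a measurement of binding.

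The other repressors of the clock lay on the same side. All 10 genes of the repressing arm had a higher mean in IF16 and an unadjusted p under 0.05, against 4.35% of all genes on that side, and in 7 of the 10 the library ranges did not overlap, against 0.857%. Of the 10, Per1 and Ciart passed the adjusted test with edgeR and 6 did with DESeq2, against 0.0362% and 0.301% of all genes called higher. The median log2 difference of the arm was 0.375. Per2 read 60.4, 51.3, 37.6, 26.3 and 41.5 CPM in AL and 66.3, 66.2, 106, 82.7 and 99.5 CPM in IF16. These ranges did not overlap, and the log2 difference of 0.95 (SE 0.199) had an edgeR adjusted p of 0.109. Per3 read 49.3, 50.2, 45.3, 36.6 and 45.1 CPM in AL against 62.7, 62.8, 70, 60.3 and 63.4 CPM in IF16, again without overlap. Its log2 difference was 0.50 (SE 0.0865) with an edgeR adjusted p of 0.0504, just outside the threshold. Nr1d2, a nuclear receptor that represses Arntl, had a log2 difference of 0.53 (SE 0.114; edgeR adjusted p = 0.132) and groups without overlap, from 103 to 148 CPM in AL and from 150 to 219 CPM in IF16. Values for Cry1, Cry2, Nr1d1, Bhlhe40 and Bhlhe41 were smaller, with log2 differences of 0.17 to 0.25. Averaged over the 10 genes, the log2 ratio to the AL mean was 0.40 to 0.55 in the 5 IF16 libraries and -0.15 to 0.10 in the 5 AL libraries.

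The activating arm was mixed in direction, with a median log2 difference of 0.104 over its 6 genes. Arntl read 46, 43.4, 48.1, 40.8 and 43.6 CPM in AL and 34.6, 34.5, 35.8, 37.1 and 38 CPM in IF16. All IF16 libraries lay below all AL libraries, with a log2 difference of -0.30 (SE 0.06). The edgeR adjusted p of Arntl was 0.103, and DESeq2 gave an adjusted p of 0.00126. Npas2, a relative of Clock, had a log2 difference of -0.33 (SE 0.139; edgeR adjusted p = 0.465). Clock itself ranged from 29.6 to 70.5 CPM within AL, with a log2 difference of 0.06 (95% interval -0.41 to 0.53), and its sign reversed with the length slope as a covariate (-0.11). The activators Rora and Rorb had log2 differences of 0.24 (SE 0.143; edgeR adjusted p = 0.565) and 0.15 (SE 0.12; edgeR adjusted p = 0.667).

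Among the output factors, Dbp read 38.9, 44.9, 40.9, 62.6 and 53.9 CPM in AL and 87.7, 84.6, 55.8, 55.5 and 61.2 CPM in IF16. The groups overlapped, since AL replicate 4 lay above 3 IF16 libraries, and the log2 difference of 0.52 (SE 0.148) had an edgeR adjusted p of 0.294. Hlf had a log2 difference of 0.36 (SE 0.114; edgeR adjusted p = 0.348). Nfil3, which competes with these factors for the same sites, had a value of -0.14 (SE 0.0687; edgeR adjusted p = 0.517). Csnk1d and Csnk1e, kinases that set the stability of the PER proteins, both had log2 differences of 0.08 (SE 0.0512 and 0.0586), and neither had an unadjusted p under 0.05. Over all 24 clock genes, 3 were called higher and none lower by edgeR, against 0.0362% and 0.0121% of all genes. At an unadjusted p under 0.05, 14 were higher and 2 lower, against 4.35% and 5.57%, and the median log2 difference was 0.246. DESeq2 called 7 higher and 1 lower, against 0.301% and 0.327% of all genes. With the length slope, edgeR called 8 and 1, against 39 and 23 of all 16577 genes. Without the 3 libraries that stood apart it called 2 and 0, where 6 genes were called in all.

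**Figure D2:**
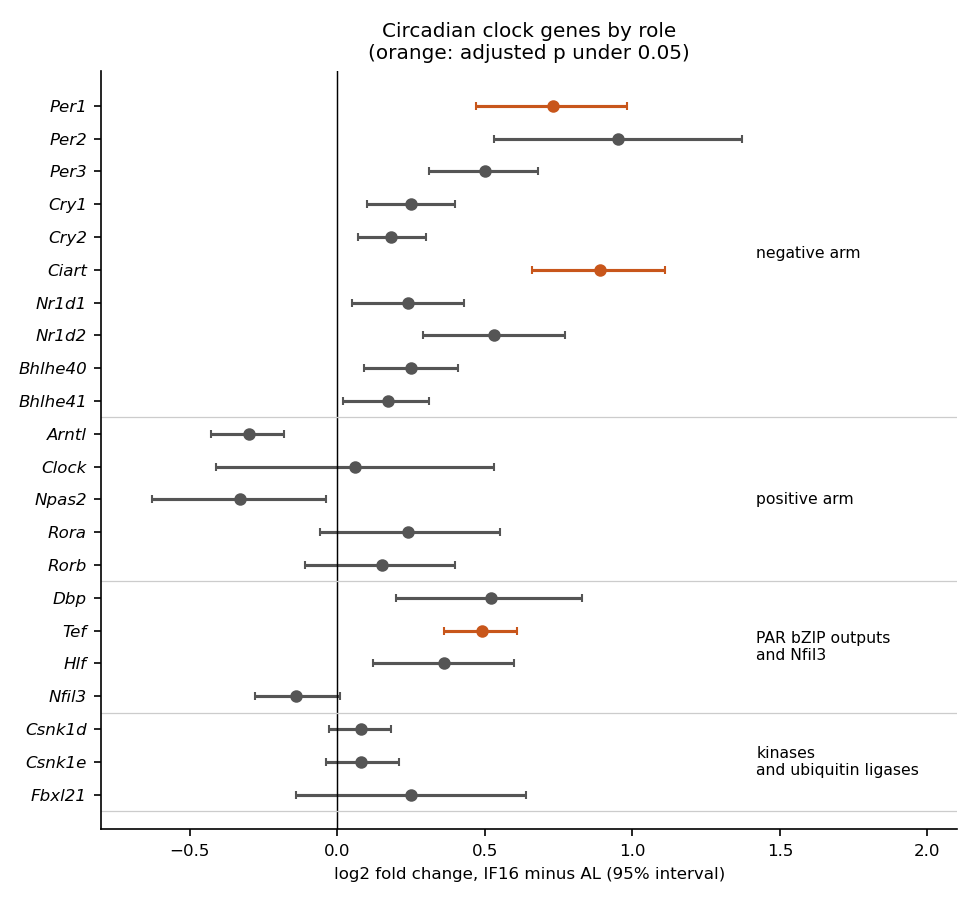
Log2 fold change of 22 of the 24 clock genes (IF16 minus AL, horizontal axis, edgeR estimate with its 95% interval), grouped by role, with the 3 genes of adjusted p under 0.05 in orange. All 10 intervals of the repressing arm lie above 0, while that of Arntl lies below 0.

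Etnppl encodes ethanolamine-phosphate phospho-lyase, an enzyme of astrocytes that breaks down phosphoethanolamine, a building block of membrane lipids. It had the smallest p of all genes. AL libraries read 95.7, 94, 91.1, 84.9 and 96 CPM and IF16 libraries 135, 128, 133, 124 and 131 CPM, so the gap between groups was wider than the range within either. The log2 difference of Etnppl (ENSMUSG00000019232, chr3:130617448-130635750) was 0.50 (SE 0.0539; edgeR adjusted p = 0.00106), and it remained called in each of the 10 fits that left out 1 library. Of the 18 genes listed for ethanolamine and choline phospholipids, edgeR called Etnppl alone, against 0.0362% of all genes called higher. The median log2 difference of the list was 0.074. The choline kinase Chka had a log2 difference of 0.22 (SE 0.0953; edgeR adjusted p = 0.477). The 12 astrocyte and Bergmann glia markers summed to 4559 to 4808 CPM in AL and 4704 to 5193 CPM in IF16, ranges that overlap, and none of the 12 had an unadjusted p under 0.05, was called by edgeR or was called by DESeq2.

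Fabp7 encodes the brain-type fatty acid binding protein of Bergmann glia and other astroglia, and it fell the more of the 2 genes that were lower. It read 41.8, 41.6, 47.7, 58.4 and 63.9 CPM in AL and 25.6, 23.2, 16.8, 23.2 and 17.7 CPM in IF16. The highest IF16 library was below the lowest AL library, and the log2 difference of Fabp7 (ENSMUSG00000019874, chr10:57784881-57788450) was -1.25 (SE 0.2; edgeR adjusted p = 0.033). The highest values came from AL replicates 5 and 4, whose length slopes were low, and Fabp7 is a short transcript of 880 bases. With the slope as a covariate the log2 difference was -1.09 (edgeR adjusted p = 0.000111), and without the 3 libraries it was -1.12 (edgeR adjusted p = 0.116). In 10 fits with a library left out the adjusted p lay between 0.03 and 0.137 and passed in 3. Other members of the family behaved otherwise: Fabp5, at 38.6 CPM in AL, had a log2 difference of 0.08 (SE 0.141) and Fabp3, at 53 CPM, one of -0.04 (SE 0.142). Fabp5 turned to -0.04 without IF16 replicate 1 and Fabp3 to 0.09 with the slope as a covariate. The remaining 7 of the 10 family genes were too low to be tested. In bulk tissue, fewer cells of a type and less RNA per cell cannot be told apart.

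Mmp14 encodes a membrane-bound metalloproteinase that cleaves extracellular matrix and activates other proteases. It read 39.1, 45.9, 40.8, 33.7 and 35.9 CPM in AL and 24.6, 29.4, 19.1, 25.4 and 25.7 CPM in IF16. The groups did not overlap, and the log2 difference of Mmp14 (ENSMUSG00000000957, chr14:54431604-54441258) was -0.65 (SE 0.102; edgeR adjusted p = 0.0325). The adjusted p passed in 5 of 10 fits with a library left out, with a highest value of 0.0857 without IF16 replicate 5. Of the 15 listed metalloproteinases and inhibitors tested, edgeR and DESeq2 each called Mmp14 alone, against 0.0121% and 0.327% of all genes called lower. Limma with quality weights called 2 lower (Mmp14 and Mmp15), against 0.718%. At an unadjusted p under 0.05, 5 were lower and 1 higher (5.57% and 4.35% of all genes). The second membrane-type enzyme Mmp15 read 26.4 to 29.1 CPM in AL and 18.5 to 25.8 CPM in IF16, without overlap, with a log2 difference of -0.36 (SE 0.0963; edgeR adjusted p = 0.271). The secreted Mmp11 had a log2 difference of -0.63 (SE 0.201; edgeR adjusted p = 0.347), and the inhibitor Timp2 one of -0.33 (SE 0.121; edgeR adjusted p = 0.415).

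Mthfd1l, the mitochondrial enzyme that releases formate for one-carbon metabolism, read 20.3, 20.8, 20.7, 20.8 and 18.5 CPM in AL and 29, 29.7, 25.4, 25 and 28.5 CPM in IF16. The groups did not overlap, with a log2 difference of 0.44 (SE 0.0762; edgeR adjusted p = 0.0474) for this gene (ENSMUSG00000040675, chr10:3973118-4167081). It was nonetheless the closest to the threshold of the 8, and leaving out any 1 library raised its adjusted p to between 0.0607 and 0.157, with log2 differences of 0.41 to 0.48. Enzymes of the same pathway, chosen after their values were seen, were close to 0: the log2 difference was 0.03 for Mthfd2, 0.01 for Mthfd1 and -0.03 for Shmt2.

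Loxhd1, best known as a protein of inner ear hair cells, had the largest ratio on the lowest level. It read 0.578, 0.568, 0.628, 0.606 and 0.448 CPM in AL and 1.5, 2.13, 1.52, 1.47 and 1.11 CPM in IF16. Every IF16 library exceeded every AL library, and the log2 difference was 1.44 (SE 0.239; edgeR adjusted p = 0.0413), with an adjusted p over 0.05 in 9 of 10 fits that left out a library, up to 0.144 without AL replicate 5. The gene (ENSMUSG00000032818) lies at chr18:77281958-77442341.

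Genes listed for the glucocorticoid response, among them the 2 receptor genes, formed the second group in which the members lay to one side. Averaged over members, the IF16 libraries differed more among themselves for this list than for the repressing arm of the clock. Within that arm, Per1 rose from 147 to 211 CPM over IF16 replicates 1 to 5, the same order as this list's mean. All 20 listed genes had a higher mean in IF16, 15 had an unadjusted p under 0.05 (4.35% of all genes were higher at that p), and the median log2 difference was 0.677, against -0.006 over all genes. None of the 20 was called by edgeR. DESeq2 called 4 (Mt1, Mt2, Tsc22d3 and Zbtb16), against 0.301% of all genes, and limma with voom and quality weights called 10, against 0.712%. The limma fit weighted IF16 replicates 4 and 5, where the mean of this list was highest, at 2.46 and 1.99. It weighted IF16 replicate 1, where that mean was lowest among the IF16 libraries, at 0.392, so its 10 calls are not separate support. Only Fkbp5 and Zbtb16 had groups without overlap, against 0.857% of all genes on that side. The IF16 libraries differed widely among themselves.

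Zbtb16, a transcription factor induced by steroid hormones, read 6.19, 4.8, 4.71, 3.58 and 5.06 CPM in AL and 7.51, 9.35, 10, 17.4 and 36 CPM in IF16. IF16 replicates 4 and 5 were far above the rest, so the log2 difference of 1.72 had an SE of 0.424 (edgeR adjusted p = 0.206). Fkbp5, the chaperone that damps the receptor, read 9.45, 6.75, 7.8, 9.92 and 8.19 CPM in AL and 10.1, 10, 10.5, 17.6 and 27.5 CPM in IF16, with the same 2 libraries highest (log2 difference 0.85, SE 0.281; edgeR adjusted p = 0.363). Sgk1, a kinase that regulates ion transport, read 54.9 to 74.7 CPM in AL and 54.1, 71.5, 127, 166 and 174 CPM in IF16. Here IF16 replicate 1 lay below all AL libraries, and the log2 difference was 0.89 (SE 0.267; edgeR adjusted p = 0.311). Tsc22d3, an anti-inflammatory mediator, read 81.1 to 104 CPM in AL and 93.7, 109, 142, 179 and 208 CPM in IF16 (log2 difference 0.69, SE 0.172; edgeR adjusted p = 0.216).

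The metallothioneins Mt1 and Mt2, which bind zinc and other metals, were less uneven. Mt2 read 115, 73.4, 111, 192 and 162 CPM in AL and 238, 171, 289, 300 and 359 CPM in IF16. IF16 replicate 2 alone fell within the AL range, and the log2 difference was 1.06 (SE 0.223; edgeR adjusted p = 0.116). Mt1 had a log2 difference of 0.72 (SE 0.177; edgeR adjusted p = 0.2). Without the 3 libraries that stood apart, Mt2 had a log2 difference of 1.48. It was then the single member called by edgeR, where 6 genes were called in all, and the median of the list was 0.909, with 19 of 20 members higher. The receptor genes themselves, Nr3c1 and Nr3c2, had log2 differences of 0.14 (SE 0.125) and 0.15 (SE 0.0873), with overlapping groups.

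Averaged over the 20 genes, the log2 ratio to the AL mean was 0.07, 0.35, 0.52, 0.98 and 1.19 in IF16 replicates 1 to 5 and -0.16 to 0.08 in the AL libraries. IF16 replicate 1 therefore lay inside the AL range, and the remaining 4 lay above it. IF16 replicate 1 is also the IF16 library of low length slope, and the part of the slope in its value was not tested. Leaving out IF16 replicate 5 lowered the number of members with an unadjusted p under 0.05 to 12, and leaving out IF16 replicate 1 raised it to 17.

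**Figure D3:**
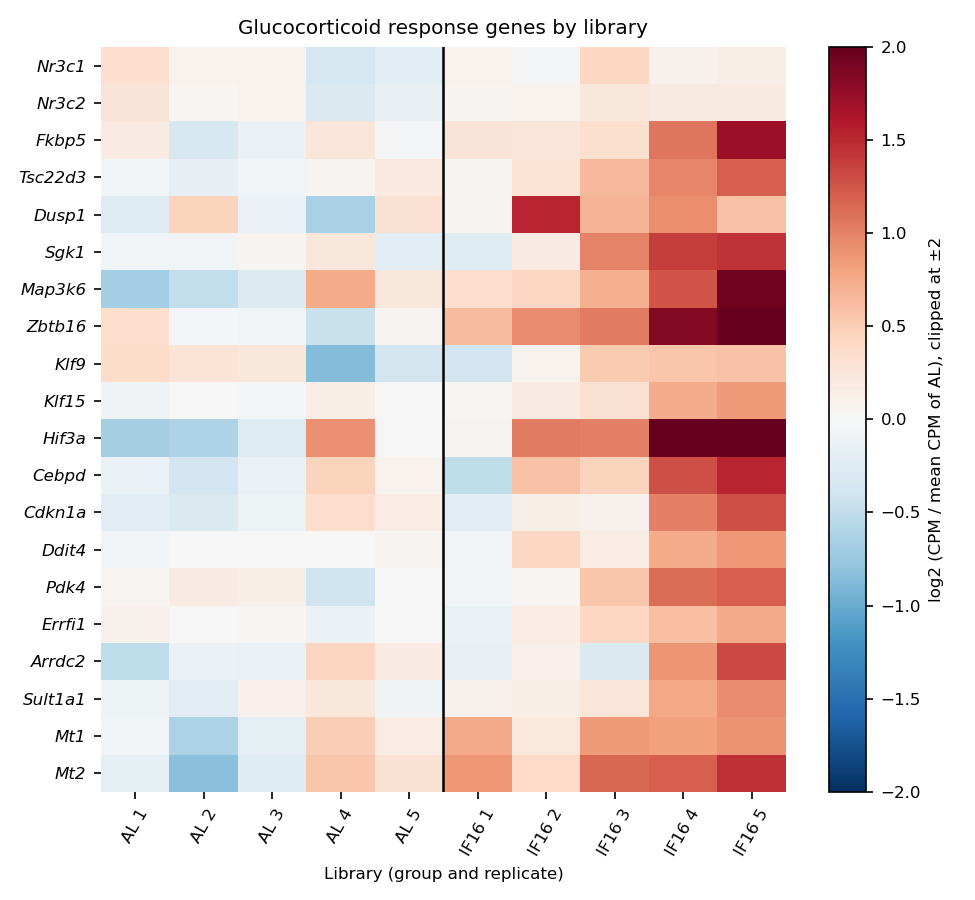
Level of the 20 listed glucocorticoid response genes in each AL and IF16 library, as the log2 ratio to the mean of the AL libraries (colour scale, clipped at 2 in either direction). The 4th and 5th IF16 libraries are the reddest for most genes, and the 1st IF16 library resembles the AL libraries except for the metallothioneins and Zbtb16.

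Targets of FOXO factors, which insulin holds in check, included Txnip, an inhibitor of glucose uptake. Txnip read 15.9, 14.1, 15.5, 14.7 and 14 CPM in AL and 17.5, 21, 30.5, 41.3 and 42.2 CPM in IF16. No library overlapped, and IF16 replicates 4 and 5 were again highest. The log2 difference of Txnip was 1.04 (SE 0.211; edgeR adjusted p = 0.105), and DESeq2 called it. Foxo1 had a log2 difference of 0.40 (SE 0.14; edgeR adjusted p = 0.398), and Foxo6 one of -0.75 (SE 0.252; edgeR adjusted p = 0.368). Of the 17 genes of the list, none was called by edgeR. At an unadjusted p under 0.05, 7 were higher and 1 lower (4.35% and 5.57% of all genes). DESeq2 called 1 and limma with quality weights 2, all higher, against 0.301% and 0.712% of all genes. The median log2 difference was 0.172. It was 0.108 with the length slope as a covariate, 0.27 without IF16 replicate 1 and 0.267 without AL replicate 1.

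Lipid droplet and PPAR-type fasting genes had single members higher or lower, around a median close to 0. Plin4, a protein that coats lipid droplets, read 2.37, 1.96, 2.11, 2.58 and 1.7 CPM in AL and 4.78, 3.14, 4.74, 7.64 and 15.6 CPM in IF16. The groups did not overlap, and IF16 replicate 5 stood above the rest. The log2 difference of 1.74 (SE 0.357) had an edgeR adjusted p of 0.109, and DESeq2 called the gene. Pdk4, which turns the cell from glucose to fat oxidation and is also on the glucocorticoid list, had a log2 difference of 0.66 (SE 0.209; edgeR adjusted p = 0.347), and Angptl4, a secreted inhibitor of lipoprotein lipase, had 0.53 (SE 0.211; edgeR adjusted p = 0.441). Plin2, another lipid droplet coat protein, had -0.25 (SE 0.0965; edgeR adjusted p = 0.439), and Cpt1a, which brings fatty acids into mitochondria, had 0.01 (SE 0.0739). Over the 18 tested genes the median was -0.017, and none was called by edgeR. At an unadjusted p under 0.05, 3 were higher and 1 lower (4.35% and 5.57% of all genes). Limma with quality weights called 3 higher, against 0.712% of all genes.

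Immediate early genes, which respond to neural activity within minutes, were uneven in both directions. Fos read 25.2, 30.8, 21.2, 8.76 and 23.3 CPM in AL and 30.2, 73.9, 53.8, 45.3 and 28.8 CPM in IF16. The groups overlapped, and the log2 difference of 1.09 (SE 0.389) had an edgeR adjusted p of 0.403. Nr4a2 had a log2 difference of 0.87 (SE 0.264; edgeR adjusted p = 0.328). Arc, a regulator of synapses, had the opposite sign, with 26.8 to 32.9 CPM in AL and 19.4 to 29.1 CPM in IF16 (log2 difference -0.42, SE 0.112; edgeR adjusted p = 0.266). Of 18 tested, none was called by edgeR or DESeq2. Limma with quality weights called 1 lower, against 0.718% of all genes. At an unadjusted p under 0.05, 7 were higher and 2 lower (4.35% and 5.57% of all genes). The median log2 difference was 0.239, and it was 0.138 without IF16 replicate 2 and 0.144 with limma and quality weights. AL replicate 4 had the lowest mean ratio over this list, -0.46 on the log2 scale, and IF16 replicate 2 the highest, 0.56.

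The pathways that burn fuel showed little difference. No gene of ketone body metabolism (10), fatty acid oxidation (23), the TCA cycle (21), autophagy (23) or the amino acid response (14) was called by edgeR or DESeq2 or had an unadjusted edgeR p under 0.05, where 9.92% of all genes did. Limma with quality weights called none of them either. The median log2 differences of these lists were 0.014, -0.043, 0.018, 0.028 and -0.001. The median width of a 95% interval on either side of an estimate was 0.21 for ketone body genes, 0.17 for fatty acid oxidation and 0.14 for the TCA cycle. For a typical gene, smaller differences were not detectable even before adjustment, and a call after adjustment needed larger ones. The ketone transporters spread widest, with log2 differences of -0.36 to 0.42.

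Glucose entry gave a few single values. Slc2a1, the glucose transporter of brain capillaries and glia, read 119 to 148 CPM in AL and 125, 148, 142, 223 and 276 CPM in IF16, with IF16 replicates 4 and 5 highest (log2 difference 0.46, SE 0.194; edgeR adjusted p = 0.471). Mpc1, part of the carrier that takes pyruvate into mitochondria, read 6.58 to 8.5 CPM in AL and 9.48 to 12.9 CPM in IF16, without overlap (log2 difference 0.43, SE 0.114; edgeR adjusted p = 0.266). Of 27 glycolysis and pyruvate genes, edgeR called none, and 3 were higher at an unadjusted p under 0.05 (4.35% of all genes). DESeq2 called 1 and limma with quality weights 2, all higher, against 0.301% and 0.712% of all genes. Srebf1, a driver of lipid synthesis, had a log2 difference of -0.39 (SE 0.104; edgeR adjusted p = 0.274). Its list of 24 cholesterol genes had a median of -0.025 and no call by edgeR or DESeq2. At an unadjusted p under 0.05, 2 were higher and 2 lower (4.35% and 5.57% of all genes). Limma with quality weights called 1 lower, against 0.718% of all genes.

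The series also profiled H3K9 methylation, and among 20 genes that write, read or erase it, edgeR and DESeq2 called none. Limma with quality weights called 1 higher (0.712% of all genes), and 2 were higher at an unadjusted p under 0.05 (4.35%). The eraser Kdm3a had a log2 difference of 0.31 (SE 0.0905; edgeR adjusted p = 0.299) and the writer Suv39h1 one of 0.18 (SE 0.0635; edgeR adjusted p = 0.408). Among sirtuins and mitochondrial biogenesis genes, Nampt, which makes NAD, had 0.27 (SE 0.0832; edgeR adjusted p = 0.338). Among neurotrophins, Bdnf had 0.46 (SE 0.151; edgeR adjusted p = 0.363), with 9.76 to 14.5 CPM in AL and 12.4 to 19.1 CPM in IF16. Neither of these last lists held a call by edgeR, DESeq2 or limma. Each held 1 gene higher and 1 lower at an unadjusted p under 0.05, against 4.35% and 5.57% of all genes.

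**Figure D4:**
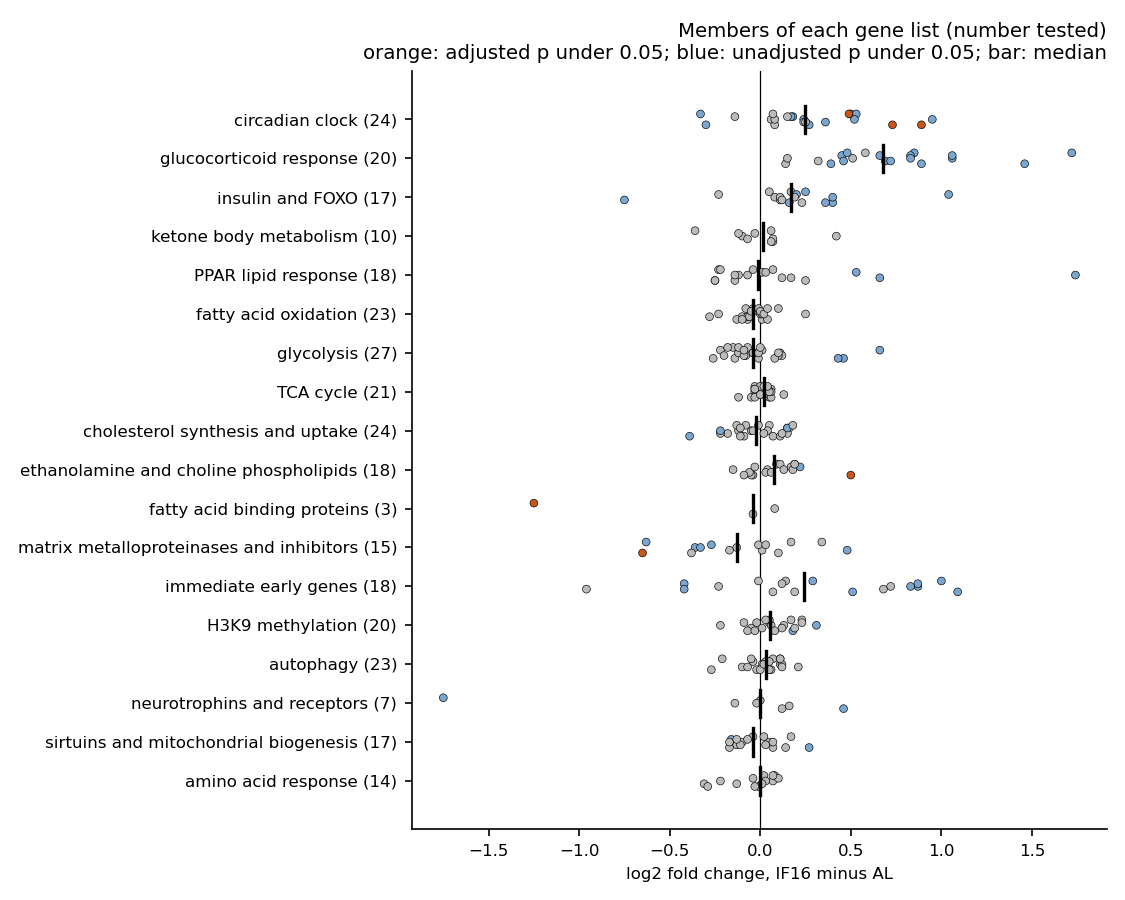
Log2 fold change (IF16 minus AL, horizontal axis) of every tested member of the 18 gene lists, with the number tested in brackets and a bar at each median. The clock, glucocorticoid, FOXO and immediate early lists have medians of 0.246, 0.677, 0.172 and 0.239, and the lists of fuel oxidation lie close to 0.

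Below the threshold, the next genes by p whose groups did not overlap included Per3 and Arntl, given above, and 10 others. Apold1, an early response gene of endothelium, had a log2 difference of 1.46 (edgeR adjusted p = 0.0519), with 2.14 to 3.93 CPM in AL and 4.75 to 12.2 CPM in IF16. Usp2, a rhythmic ubiquitin protease, read 89.5 to 103 CPM in AL and 109 to 148 CPM in IF16 (log2 difference 0.41; edgeR adjusted p = 0.103). Vipr2, a receptor for the clock peptide VIP, had 0.63 (edgeR adjusted p = 0.105), Plaur, the urokinase receptor, 0.98 (edgeR adjusted p = 0.0938), and the kinase Stk32a 0.55 (edgeR adjusted p = 0.103). Lower in IF16 were Sox3, a factor of neural progenitors and glia, at -1.33 (edgeR adjusted p = 0.0623), Spon2, an extracellular matrix protein, at -1.65 (edgeR adjusted p = 0.0788), Vstm4 at -0.49 (edgeR adjusted p = 0.0788) and Cpsf4l at -0.70 (edgeR adjusted p = 0.104). The long noncoding RNA RP23-392G15.1 had 0.75 (edgeR adjusted p = 0.103). All 12 were called by DESeq2 and by edgeR with the length slope as a covariate. Those fits call more genes in the same libraries in which the 12 were chosen by p, so these calls are not separate support.

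Markers of other cell types were compared in the same libraries. The 11 markers of the choroid plexus, which secretes the cerebrospinal fluid, all had a lower mean in IF16, with a median log2 difference of -0.569, and their sum ran from 182 to 5131 CPM in AL and from 172 to 4145 CPM in IF16, and none had an unadjusted p under 0.05 or was called by edgeR or DESeq2. With the choroid marker mean as a covariate, Etnppl, Ciart, Tef and Fabp7 remained called by edgeR (adjusted p from 0.00336 to 0.0474), and Mmp14, Loxhd1, Per1 and Mthfd1l had adjusted p-values of 0.0507 to 0.0811, with log2 differences of -0.64, 1.49, 0.68 and 0.44. The 6 genes listed for oligodendrocyte precursors summed to 232 to 307 CPM in AL and 173 to 226 CPM in IF16, without overlap. All 6 had a lower mean in IF16, with a median log2 difference of -0.34, and 2 (Olig1 and Olig2) had groups without overlap, against 0.694% of all genes on that side. The log2 differences were uneven within the list, at -0.48 (SE 0.14) for Olig1, -0.46 (SE 0.124) for Olig2 and -0.51 (SE 0.159) for Sox10. They were -0.22 (SE 0.132) for Cspg4, -0.11 (SE 0.0935) for Gpr17 and -0.03 (SE 0.112) for Pdgfra. The sum is therefore not read as a change in precursor cells. None of the 6 was called by edgeR or DESeq2, and 3 were lower at an unadjusted p under 0.05, against 5.57% of all genes. Endothelial markers summed to 315 to 333 CPM in AL and 261 to 316 CPM in IF16, with 4 of 8 lower at an unadjusted p under 0.05, against the same 5.57%. Whether these shifts bear on Mmp14 or Fabp7 was not tested. Sums of the granule, Purkinje, oligodendrocyte, microglia, mural cell, meningeal, ependymal and red blood cell markers overlapped between the groups.

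In the alternate-day group, which shares the AL libraries and in which edgeR called 0.0664% of genes against AL, the log2 differences of the 8 genes from AL were 0.60 for Etnppl, 0.49 for Ciart, 0.34 for Tef, 0.72 for Per1, 0.37 for Mthfd1l, 1.71 for Loxhd1, -0.20 for Mmp14 and -0.73 for Fabp7. The direct test of EOD against IF16 called no gene by edgeR (600 genes, or 3.62%, had an unadjusted p under 0.05), and DESeq2 called 1. Among the 8, Mmp14 was 0.45 higher in EOD than in IF16 (95% interval 0.24 to 0.67; edgeR adjusted p = 0.977), and Ciart was 0.40 lower by the estimate (95% interval for EOD minus IF16 -0.62 to -0.18; edgeR adjusted p = 0.977). The interval for Per1 was -0.26 to 0.25 and that for Etnppl -0.01 to 0.22. Dbp had an EOD minus IF16 value of -0.51 (95% interval -0.82 to -0.20; edgeR adjusted p = 0.977), with 48.5 ± 4.11 CPM (SD, n = 5) in EOD. The median difference of the glucocorticoid list between the fasting groups was 0.025.

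After 2 months of refeeding, other mice of the refed IF16 and refed AL groups were compared in a fit of all 30 RNA-seq libraries over 16877 genes. No gene was called between refed IF16 and refed AL by edgeR, where 3.88% had an unadjusted p under 0.05. The test of the change, the difference at the end of the regimen minus the difference after refeeding, called 8 genes (0.0474%), among them Ciart, Tef and Mmp14. Ciart read 14.7 ± 1.44 CPM in refed AL and 14.7 ± 1.25 CPM in refed IF16 (SD, n = 5), so its difference changed by 0.89 on the log2 scale (SE 0.131; edgeR adjusted p = 0.00301). Mmp14 read 38.9 ± 4.96 and 42.7 ± 3.18 CPM, a change of -0.79 (SE 0.141; edgeR adjusted p = 0.0138). Tef read 342 ± 23.2 and 372 ± 9.49 CPM, a change of 0.37 (SE 0.073; edgeR adjusted p = 0.0454). For Etnppl a difference of 0.25 (SE 0.0495) was estimated after refeeding, with 81.3 ± 6.15 CPM in refed AL and 97.0 ± 2.77 CPM in refed IF16, and its change of 0.24 had an edgeR adjusted p of 0.375. Per1 had 0.27 (SE 0.209) after refeeding and a change of 0.46 (SE 0.296; edgeR adjusted p = 0.769). The glucocorticoid list had a median of 0.045 after refeeding, with no member at an unadjusted p under 0.05, and its members' median change was 0.565, with 9 of 20 at an unadjusted p under 0.05, against 7.21% of all genes, and none called by edgeR. Age, table and refeeding differ together between the 2 collections, so levels are not compared between them. For the same reason a change in the difference cannot be assigned to refeeding alone.

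**Figure D5:**
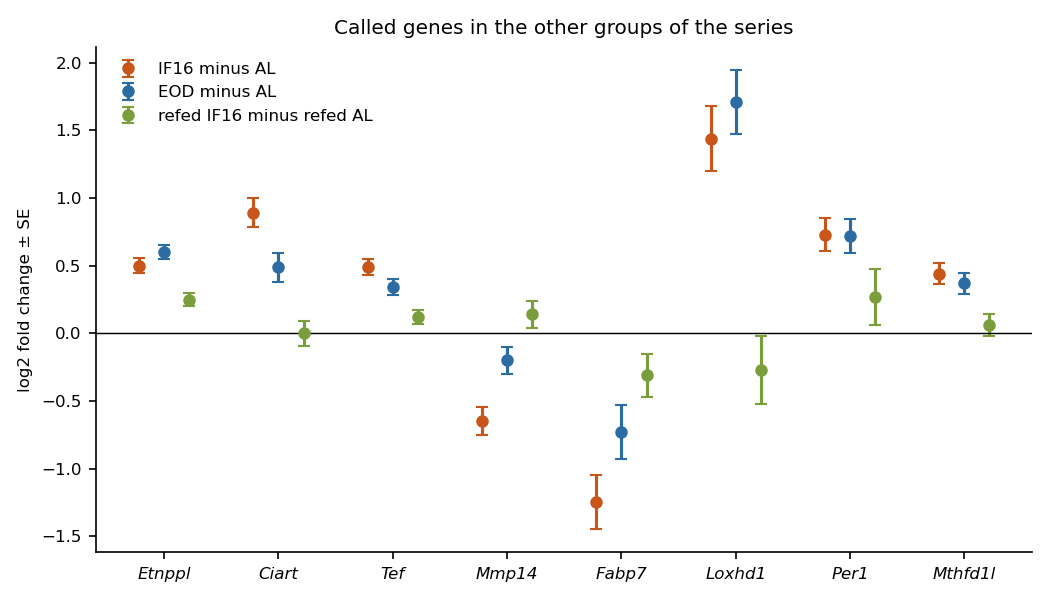
Log2 fold change with SE of the 8 genes for IF16 minus AL, EOD minus AL (which share the AL libraries) and refed IF16 minus refed AL. The differences after refeeding run from -0.31 for Fabp7 to 0.27 for Per1, nearer to 0 for each gene than at the end of the 16 h regimen. The 8 genes were chosen by their IF16 minus AL difference, so smaller values in other mice can follow from that choice. Of these genes, only Ciart, Mmp14 and Tef passed the edgeR test of the change.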

How the data were processed

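Whole-number read counts per gene were deposited by the authors in 2 tables of 15 libraries, 1 taken as the regimens ended and 1 after refeeding. Per the submitters' processing notes, the tools were STAR 2.5, HTSeq 0.6.1 and DESeq2 with the mm10 genome. Strand handling and the annotation release are not given in the sources used here, so overlapping, antisense and near-identical genes may exchange reads. Gene lengths and positions are those of the deposited tables. FPKM tables and group means were not used, since they derive from the same counts, and 12 chromatin samples were not analysed here. No column of per-sample values was left unmapped (0).

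Counts were tested with edgeR 4.0.16 in R 4.3.3 (quasi-likelihood test, two-sided) after TMM scaling and filterByExpr by group, in 1 fit of the 15 libraries of the regimens, which left 16577 of 35275 genes, and 1 fit of all 30 libraries for the change with refeeding. Benjamini-Hochberg adjustment covered all genes tested, and calls were made below an adjusted p of 0.05. Standard errors derive from the F statistic. The common biological coefficient of variation was 14.3%. At this depth the spread between samples sets the precision. The procedure was tested on simulated data. Alternatives were DESeq2 1.42.0, limma 3.58.1, other scalings, filters, covariates and library sets, and the replicate number as a block.

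Named genes were all called genes, the next 12 by p with at least 1 CPM and groups without overlap, all clock genes, and the 3 members of smallest p in each of 18 study lists (323 genes). Other members are given by value to describe a role, and the results of some genes are not reported here. Marker lists covered 14 cell types or regions. The comparison, members and lists were chosen with earlier results of these data known, so the counts over lists are descriptions. Promoter windows came from RefSeq (GRCm38.p6), matched by symbol.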

Additional observations from a re-analysis of the deposited data

Results flagged for a closer look

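In 8 genes the IF16 difference from controls was not the same at the end of the regimen and after refeeding, by the edgeR test of that change. The values, in log2 units, were 0.89 for Ciart, 0.37 for Tef and 0.90 for Ctla2a, a protease inhibitor-like protein, and -0.79 for Mmp14, -0.76 for Vstm4, -0.46 for Fads2, -1.17 for Col2a1 and -0.78 for 0610040J01Rik. Fads2 makes polyunsaturated fatty acids and Col2a1 is a fibrillar collagen. The difference of Col2a1 was -0.76 at the end of the regimen and 0.41 after refeeding (edgeR adjusted p of the change = 0.0034). That of Fads2 was -0.19 and then 0.27 (edgeR adjusted p of the change = 0.0138).

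The search for outlying libraries took 78 groups of 5 libraries, which cover only part of the named genes. A single library stood far from the other 4 in 4 groups, where chance gives about 1 in 20, or 3.9. Mthfd1l was 18.5 CPM in AL replicate 5 against 20.3 to 20.8 in the others, and Usp2 was 89.5 CPM in AL replicate 1 against 99.1 to 103. Bhlhe40 was 70.4 CPM in AL replicate 4 against 76.2 to 78.1. RP23-392G15.1 was 3.34 CPM in IF16 replicate 1 against 2.08 to 2.31.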

How the results depend on the processing

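The 8 calls of IF16 against AL became 96 with DESeq2, 237 with limma and sample quality weights, 62 with the length slope as a covariate, 4 with the choroid marker mean as a covariate and 5 in a fit of the 10 libraries alone; leaving out 1 library gave 3 to 10. DESeq2 size factors and a minimum of 1 CPM left it at 8, no filter gave 11, and leaving out the 3 libraries that stood apart gave 6. Each of the 8 genes kept its direction under every alternative run, and 58 of their 160 refitted values missed the threshold. EOD against IF16 gave 1 call in place of 0 with DESeq2 and 1 with no filter. The change with refeeding gave 27 calls with DESeq2 and 5 to 16 with a library left out, the lowest without refed AL replicate 3 and the highest without IF16 replicate 2. The cause was not tested, beyond the smaller number of libraries in some fits.

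With the replicate number as a block, the result IF16 vs AL had 0 calls (854 genes with an unadjusted p under 0.05) and EOD against IF16 had 0. Same-numbered AL and IF16 libraries had correlations of -0.534 to 0.175 in their deviations from the group means, and none correlated best with its own number, so the numbers are not taken as pairs.

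Signs reversed only in small values. Clock in IF16 vs AL became -0.0033 with the choroid covariate, -0.11 with the length slope, -0.0071 with limma and -0.13 without the 3 libraries, and ranged from -0.08 to 0.23 with 1 library left out. Fabp3 in IF16 vs AL became 0.02, 0.09, 0.06 and 0.09 under the same 4 alternatives and ranged from -0.14 to 0.07 with 1 library left out. Without the 3 libraries Mdh2 in IF16 vs AL became 0.06 and Ntrk3 -0.04, and with limma Mdh2 became 0.0028. With 1 library left out Ntrk3 ranged from -0.02 to 0.23 and Fabp5 from -0.04 to 0.18.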

Other observations

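In all, 38 genes, many of them given above, were called by DESeq2, by edgeR with the length slope as a covariate and by limma with sample quality weights, a set singled out after the values were seen. Among those not yet described, Lpl, the enzyme that frees fatty acids from lipoproteins, was at 1.23 CPM in AL and 0.553 CPM in IF16 (log2 difference -1.15; edgeR adjusted p = 0.165). Coq10b, which serves coenzyme Q function in mitochondria, was at 17.9 and 25.8 CPM (log2 difference 0.52; edgeR adjusted p = 0.109), and Plat, tissue plasminogen activator, at 52.9 and 66.5 CPM (log2 difference 0.33; edgeR adjusted p = 0.178).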
